A study of Mus musculus with 4 samples.

Results

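The genes described here encode the transcription factors Foxp3 and Helios (Ikzf2) and 8 co-receptors of regulatory T cells and of T cell checkpoints: Ctla4, Icos, Tnfrsf4, Tnfrsf18, Pdcd1, Lag3, Tigit and Havcr2. They were taken by symbol and are 10 of the 32285 genes in the deposited tables. The choice was made with earlier results of these data known. The tables hold single-cell RNA sequencing counts of CD45+ leukocytes, which carry a surface protein of immune cells, from colonic lamina propria. The mice drank 2% dextran sulfate sodium (DSS), a polymer that damages the gut epithelium, over 7 days, and tissue was taken on day 8. The study compared AhR-/- mice, which lack the aryl hydrocarbon receptor in every cell, with co-housed AhR+/+ littermates on a C57BL/6 background. The labels number 4 samples, give DSS for each and an age of 10 weeks, which differs from the age in the study's text, but give no AhR genotype. No genotypes were therefore compared and samples were not taken as replicates. Values are given for samples 1 to 4 side by side, and where a range, a median or a sum over the samples is given, it describes these samples only. Each sample is a mixture of 3 mice, so differences between mice cannot be seen, and no sample without DSS was analysed here.

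Regulatory T cells restrain other immune cells and are abundant in the colonic lamina propria. Foxp3 is the transcription factor that defines them, and Helios is present in many of them. Their surface carries CTLA-4, which takes up the CD80 and CD86 ligands of CD28, and ICOS, OX40 (Tnfrsf4) and GITR (Tnfrsf18), which receive costimulatory signals. PD-1 (Pdcd1), LAG-3, TIGIT and TIM-3 (Havcr2) are inhibitory receptors that activated T cells also carry, and none of these receptors is exclusive to regulatory T cells.

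Some of the 10 genes are neighbours in the mouse genome. On the GRCm38 build with GENCODE M21 annotation, Ctla4 (chr1:60887000-60915832) and Icos (chr1:60977927-61000320) lie 62094 bases apart, and Tnfrsf4 (chr4:156013843-156016612) and Tnfrsf18 (chr4:156026164-156028895) lie 9551 bases apart. Foxp3 (chrX:7573644-7595245) overlaps Ppp1r3f, Ccdc22 and Flicr, and Ikzf2 (chr1:69531214-69687245) overlaps 3 predicted genes of the tables. Tnfrsf18 overlaps Gm16008, a gene on the opposite strand that the tables also hold. Whether counting used strand or introns is not given in the sources used here, so reads of overlapping genes may not be told apart.

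Promoter windows, the 250 bases before a RefSeq start site on GRCm38.p6, were found for 7 of the 10 genes. Each window was searched on both strands for 4 short motifs: forkhead TGTTTNC, AP-1 TGANTCA, STAT TTCNNNGAA and NFAT TGGAAA. Over 32851 windows of all genes these letters stood in 17.8%, 6.75%, 7.02% and 18.6%. The 3 windows below belong to receptor genes that were higher in Foxp3-positive T cells and that share no annotated exon with the window, and capitals mark the match. They are chr1:60908775-60909024 (+), which lies in an intron of a longer annotated Ctla4 transcript, chr4:156013445-156013694 (+) and chr11:46454681-46454930 (+).
Ctla4: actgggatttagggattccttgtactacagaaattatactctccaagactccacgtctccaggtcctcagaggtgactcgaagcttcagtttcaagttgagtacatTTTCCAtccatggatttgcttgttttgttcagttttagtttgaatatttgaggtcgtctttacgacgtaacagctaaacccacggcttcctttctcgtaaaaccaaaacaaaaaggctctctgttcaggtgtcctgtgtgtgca
Tnfrsf4: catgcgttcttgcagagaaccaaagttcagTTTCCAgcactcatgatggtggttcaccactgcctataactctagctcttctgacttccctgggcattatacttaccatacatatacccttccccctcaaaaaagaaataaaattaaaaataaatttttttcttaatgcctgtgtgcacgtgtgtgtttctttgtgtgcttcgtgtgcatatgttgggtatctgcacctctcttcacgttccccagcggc
Havcr2: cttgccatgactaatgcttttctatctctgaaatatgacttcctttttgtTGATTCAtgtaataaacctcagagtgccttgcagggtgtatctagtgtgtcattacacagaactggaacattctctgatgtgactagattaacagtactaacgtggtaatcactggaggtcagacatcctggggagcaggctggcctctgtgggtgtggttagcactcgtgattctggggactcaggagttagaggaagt
The Ctla4 match was the NFAT letters read on the other strand, from base -144 to -139 before the start, and the Tnfrsf4 match was the same 6 letters from -220 to -215. Havcr2 held an AP-1 match from -200 to -194. Of the windows not printed, Tnfrsf18 held a STAT match from -99 to -91, Tigit held a forkhead match at -112 to -106 and another at -55 to -49, and Pdcd1 held none. At the second of 2 Foxp3 start sites a forkhead match from -143 to -137 overlapped a STAT and an NFAT match. These are matches of letters, and binding was not measured.

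The 4 tables held 8493 to 13730 cells and 72509408 to 135516016 transcript molecules, counted by unique molecular identifiers (UMIs). After filters 39550 cells were kept, with a median of 5633.5 to 7084 UMIs per cell by sample, and any pair of samples shared 23 to 49 cell barcodes. Cells were put into classes one by one from marker genes that exclude the 10 genes. T cells needed at least 2 UMIs of Cd3d, Cd3e and Cd3g and a T cell receptor UMI, and innate lymphoid cells (ILC), which include NK cells here, had none of these CD3 genes and no Trac. The gate gave 4230 T cells, 716 to 1972 per sample, and 812 ILC. A further 10350 cells (26.2%) carried markers of more than 1 lineage and were left out as mixed. CPM means UMIs of a gene or list, summed over a class, per 1e6 UMIs of that class. The 9 T cell markers summed to 2811 to 3477 CPM in T cells and to 18.4 to 69.4 CPM in plasma cells. In ILC, whose gate barred only the CD3 genes and Trac of these markers, they summed to 540 to 690 CPM. In mast cells, read in samples 1 and 2 with only 16 and 37 cells, the sum was 139 to 197 CPM.

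Foxp3 was highest in T cells in every sample. It stood at 53.1 CPM in the T cells of sample 1, 25.9 in sample 2, 110.1 in sample 3 and 83.2 in sample 4. In the other gated classes without ILC the summed level was 0.333, 0.856, 1.31 and 0.995 CPM, and in ILC it was 0.736, 1.10, 4.01 and 5.04 CPM. Sample 2 was lowest and sample 3 highest in T cells, and every T cell value was above every value of the other classes. The ratio of T cells to the other classes without ILC was 159 (95% interval 95.1 to 288), 30.2 (20.8 to 45.6), 84.1 (62.9 to 115) and 83.6 (57.0 to 128) in samples 1 to 4. All intervals here are exact and cover counting error only, since cells of 1 sample are not replicates, and 4 samples allow a smallest 2-sided sign-flip p of 0.125, so no p-value is given.

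A Foxp3 UMI was seen in 11.5% of T cells of sample 1 (9.33 to 14.1%), 5.78% of sample 2 (4.79 to 6.90%), 28.1% of sample 3 (24.8 to 31.5%) and 22.5% of sample 4 (19.6 to 25.5%). The order of the samples matched that of the CPM, with sample 2 lowest and sample 3 highest. The T cells of samples 1 to 4 held a median of 7054, 5114, 7654 and 7523 UMIs. With each cell thinned to 1000 UMIs the shares were 3.67%, 1.57%, 8.10% and 5.71%, in the same order. Among T cells with a Cd4 UMI and without a Cd8a or Cd8b1 UMI the shares were 24.0%, 21.0%, 43.3% and 39.4%. Of all kept cells, Foxp3-positive T cells made up 0.848%, 0.964%, 1.98% and 2.40%. By that measure sample 1 was lowest and sample 4 highest, so the order depends on what the cells are counted against. In cells that should lack the gene the share was 0.455% of B cells, 0.5002% of neutrophils and 0.522% of monocytes and macrophages, at median depths of 4555.5, 4230 and 6232 UMIs, so shares of that size were read as background. ILC held 10 Foxp3-positive cells of 812 (1.23%, 0.592 to 2.25%). No mast cell of 66 held one, and a limit of 3 counts allows a share of cells with a UMI of up to 4.55%.

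The T cell gate held 581 of the 1651 kept cells with a Foxp3 UMI (35.2%), and the mixed cells held 874 (52.9%). Of 2098 mixed cells whose leading markers were those of T cells, 540 (25.7%) held a Foxp3 UMI, and they had a median of 16643 UMIs. Of the 581 Foxp3-positive T cells, 378 had Cd4 without Cd8 UMIs, 21 had Cd8 without Cd4, 62 had both and 120 had neither. Exactly 1 Foxp3 UMI was counted in 143 of them (24.6%).

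Ikzf2 was highest in T cells in every sample and second in ILC. Its T cell level was 1663, 2517, 935 and 1182 CPM in samples 1 to 4 against 952, 1125, 519 and 515 CPM in ILC, and the ratio ran from 1.75 to 2.30. In the other classes with at least 50 cells it ran from 2.68 CPM in plasma cells to 69.8 CPM in B cells. Within ILC, cells gated on the ILC2 list (Gata3, Il1rl1, Il17rb and others, 313 cells) held 292 to 800.2 CPM of Ikzf2, and those gated on the NK and ILC1 list (359 cells) held 531 to 1201 CPM. Cells gated on the ILC3 list (140 cells, 32 to 40 per sample) held 483 to 1646 CPM. Their median over samples was 1120 CPM, against 540 CPM in ILC2-gated and 734 CPM in NK and ILC1-gated cells. The order of samples differed between Foxp3 and Ikzf2: sample 2, lowest in Foxp3 in T cells, was highest in Ikzf2 in both T cells and ILC. Foxp3-negative CD8 cells, a set described below, were 140 of 736, 787 of 1972, 127 of 716 and 174 of 806 T cells in samples 1 to 4. The part of this make-up in the order was not tested.

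Ctla4 and Tnfrsf4 were highest in T cells in every sample, while Icos and Tnfrsf18 were also found in ILC. Ctla4 stood at 764, 594, 1273 and 1255 CPM in T cells and at 57.4, 159, 197 and 157 CPM in ILC. Plasma cells, which reached 50 cells in samples 1 to 3, held 476, 369.7 and 559 CPM of Ctla4 there, with a UMI in 81.4 to 85.2% of cells and in 25.9 to 44.2% after thinning. These plasma cells held 4.46 to 25.8 CPM of the CD3 genes against 836 to 1436 CPM in T cells. The gate asked T cells for CD3 UMIs and put plasma cells with many T cell markers among the mixed cells. This contrast thus follows in part from the gate, and whether the Ctla4 of plasma cells came from T cells was not tested. Tnfrsf4 stood at 186, 106, 379 and 258 CPM in T cells, at 2.21, 8.81, 8.02 and 19.3 CPM in ILC and at 27.5, 21.7, 46.7 and 34.5 CPM in dendritic cells (DC). Within DC it was found in the mature DC list (429 cells), at 57.6 to 91.7 CPM.

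Icos stood at 632, 444, 724 and 813 CPM in T cells and 338, 479, 289 and 605 CPM in ILC. In sample 2 the intervals of T cells and ILC overlapped, and in the other 3 samples T cells were higher. The ILC2-gated cells held 646, 1315, 746 and 1017 CPM of Icos against 122, 91.5, 64.3 and 58.7 CPM in the NK and ILC1-gated cells, without overlap. Tnfrsf18 stood at 129, 79.1, 209 and 146 CPM in T cells and 138, 82.6, 127 and 141 CPM in ILC, and only in sample 3 did the intervals separate. The ILC2-gated cells again held more in every sample, by little in sample 2, at 232, 93.7, 239 and 207 CPM against 113, 84.8, 82.7 and 74.5 CPM in NK and ILC1-gated cells.

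**Figure D1:**
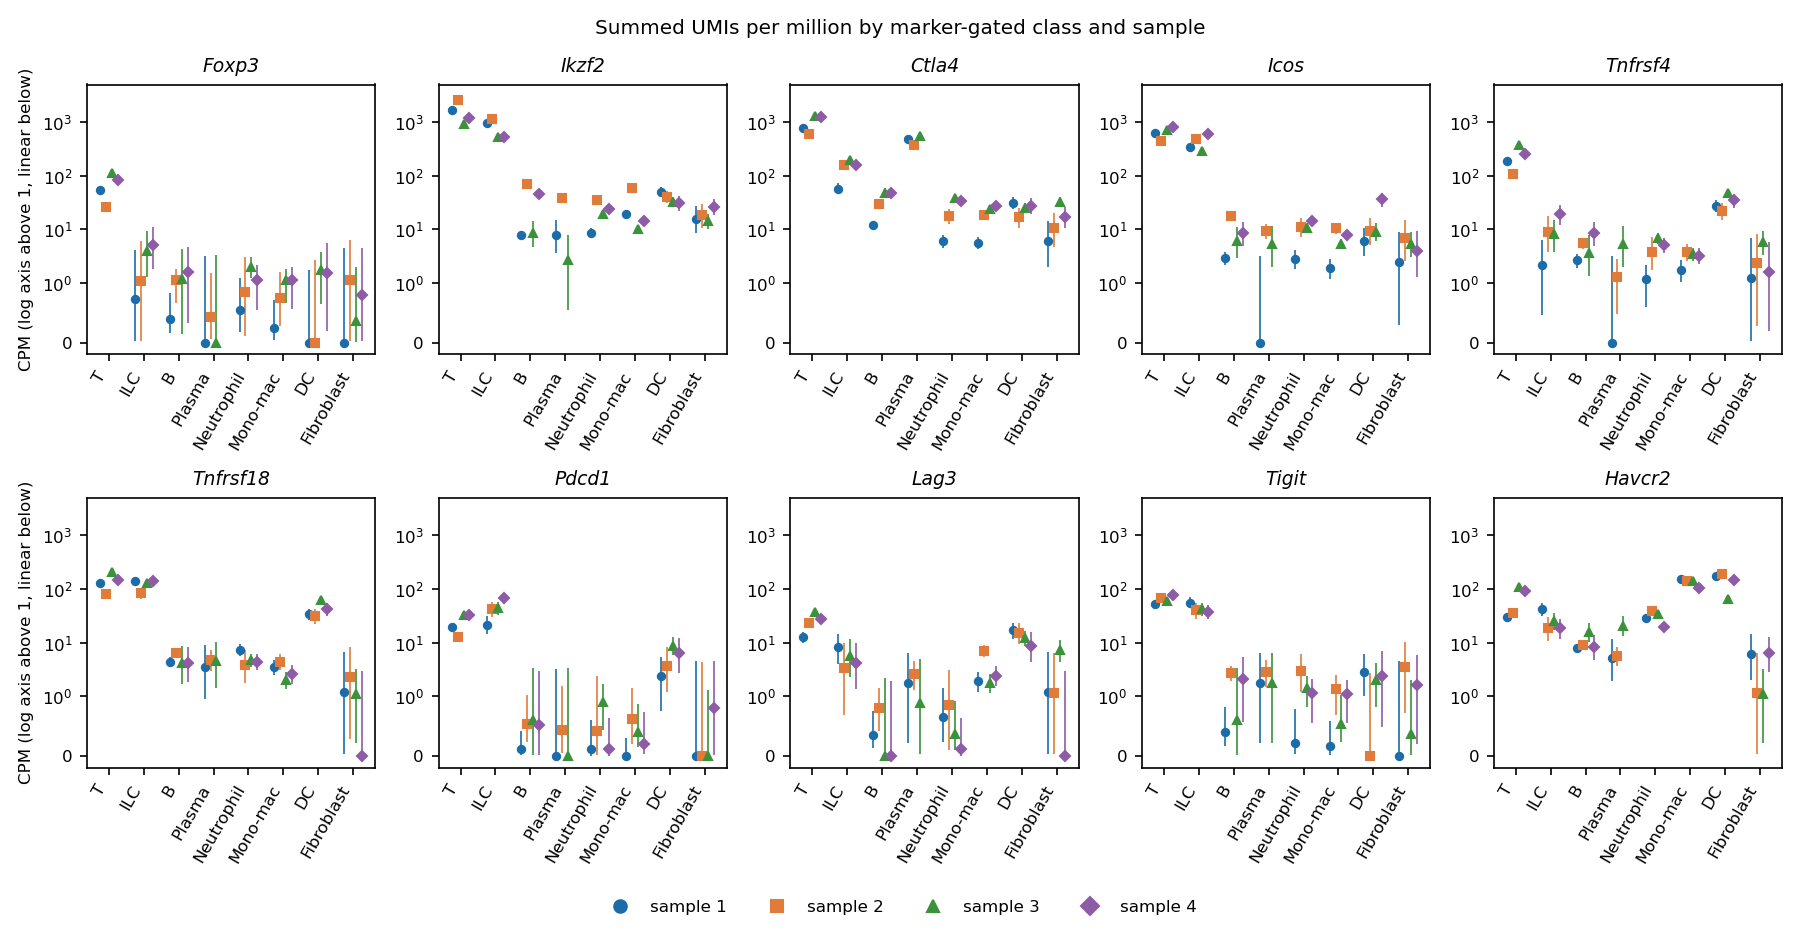
CPM of summed UMIs (log axis above 1, linear below) for each of the 10 genes by marker-gated class, with 1 point per sample and class of at least 50 cells. Foxp3, Ikzf2, Ctla4 and Tnfrsf4 are highest in T cells in all 4 samples, and Havcr2 is highest in DC or in monocytes and macrophages.

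The genes Pdcd1, Tigit, Lag3 and Havcr2 did not share 1 pattern over classes. Pdcd1 was low in T cells, at 19.7, 12.8, 32.7 and 32.0 CPM, and stood at 21.3, 41.9, 43.3 and 67.2 CPM in ILC, where the intervals lay above those of T cells in samples 2 and 4. Its ILC2-gated level was 53.4, 101, 111 and 110.3 CPM. Tigit stood at 51.5, 68.9, 59.2 and 77.8 CPM in T cells and at 55.2, 39.7, 41.7 and 37.8 CPM in ILC, where the NK and ILC1-gated cells held 59.7 to 93.8 CPM and the ILC2-gated cells 0 to 17.8 CPM.

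Lag3 stood at 12.4, 23.1, 36.6 and 28.1 CPM in T cells and at 16.8, 15.2, 11.97 and 8.61 CPM in DC. The DC with plasmacytoid markers (91 cells) held 69.9, 50.5, 93.9 and 59.95 CPM of Lag3. Havcr2 was highest outside lymphocytes. DC held 175, 190.2, 64.2 and 145 CPM, monocytes and macrophages 154, 143, 138 and 104 CPM, and T cells 29.5, 35.5, 109 and 90.9 CPM. Conventional type 1 DC (90 cells, 15 to 31 per sample) held 317 to 507 CPM of Havcr2 and conventional type 2 DC 165 to 297 CPM.

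Against the other gated classes without ILC, 8 of the 10 genes were at least 2-fold higher in T cells in 4 of 4 samples, where 2.7% of the 15046 genes with at least 100 UMIs were. The fold was computed on log2(CPM + 10), which understates differences of low genes. Lag3 missed the 2-fold line in 1 sample, with a lowest log2 ratio of 0.93, and Havcr2 had log2 ratios from -0.83 to 0.67. Against ILC, 3 of the 10 were 2-fold higher in 4 of 4 samples (Foxp3, Ctla4 and Tnfrsf4), where 0.807% of 10775 genes were.

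T cells with and without a Foxp3 UMI were then compared within each sample, so that both sets came from the same library. The median depth was 9574, 8705.5, 10786 and 12336 UMIs in Foxp3-positive and 6861, 5002.5, 7163 and 6677 UMIs in Foxp3-negative T cells. Of the 9 other genes, 5 were at least 2-fold higher in Foxp3-positive T cells in 4 of 4 samples: Ctla4, Tnfrsf4, Tnfrsf18, Lag3 and Havcr2. Of all 10481 genes with at least 100 UMIs in T cells, 82 (0.782%) were. The median of the 9 genes' median log2 ratios was 1.27, and that of all genes was 0.02.

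Ctla4 stood at 2396, 2058, 2025 and 1994 CPM in Foxp3-positive T cells and at 444, 433, 769 and 831 CPM in Foxp3-negative T cells. The positive cells were close in all 4 samples, and the negative cells were higher in samples 3 and 4. The ratios were 5.39 (5.09 to 5.71), 4.75 (4.53 to 4.99), 2.63 (2.53 to 2.74) and 2.40 (2.31 to 2.498). Over cells with 1, with 2 to 4 and with 5 or more Foxp3 UMIs, the median Ctla4 level over samples was 2103, 2075 and 2084 CPM, against 607 CPM with none. The same medians were 486, 525 and 707 CPM for Tnfrsf4 and 225, 276 and 328 CPM for Tnfrsf18, with ranges over samples that overlapped.

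Tnfrsf4 had the largest median log2 ratio of the 9 genes, 2.46. It stood at 755, 567, 654 and 476 CPM in Foxp3-positive and at 74.3, 54.9, 195 and 133 CPM in Foxp3-negative T cells, giving ratios of 10.2 (8.97 to 11.5), 10.3 (9.25 to 11.5), 3.35 (3.10 to 3.62) and 3.59 (3.27 to 3.94). Samples 1 and 2 had the lower Foxp3-negative levels and the larger ratios, as for Ctla4. Tnfrsf18 stood at 365, 213, 331 and 233 CPM against 83.0, 64.4, 127 and 95.5 CPM, with ratios from 2.43 to 4.397. Icos stood at 1333, 1272, 959.7 and 1174 CPM against 494, 354, 567 and 605 CPM. Its ratio was 2.70, 3.60, 1.69 and 1.94, so Icos was higher in every sample but under 2-fold in samples 3 and 4.

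Lag3 stood at 32.5, 65.2, 63.7 and 55.6 CPM in Foxp3-positive and at 8.496, 18.5, 18.4 and 12.2 CPM in Foxp3-negative T cells. Its ratios were 3.82 (2.36 to 6.14), 3.53 (2.69 to 4.60), 3.47 (2.68 to 4.52) and 4.56 (3.39 to 6.19), and the median log2 ratio was 1.39. With cells thinned to 1000 UMIs that median was 0.75 and Lag3 no longer passed the 2-fold line in 4 of 4 samples. Havcr2 stood at 63.0, 133, 174 and 149.99 CPM against 23.0, 24.8, 65.1 and 57.0 CPM, with ratios of 2.74, 5.36, 2.67 and 2.63. With mixed cells kept in the class of their leading markers, 3 of the 9 genes passed the 2-fold line in 4 of 4 samples (Ctla4, Tnfrsf4 and Tnfrsf18), and the median log2 ratio was 1.09 for Lag3 and 0.999 for Havcr2.

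Because macrophages and DC carry Havcr2, the monocyte-macrophage markers were read in the same cells. The gate had used these same lists to put cells with markers of another lineage among the mixed cells. Low levels of such markers in the gated T cells, here and below, thus follow in part from the gate. The 9 markers summed to 331 to 530 CPM in Foxp3-positive and 113 to 179 CPM in Foxp3-negative T cells. Ccr2, a chemokine receptor that T cells also use, made up 284 to 465 CPM of the former and 49.9 to 108 CPM of the latter. Ccr2 was the only 1 of the 9 whose range in Foxp3-positive cells lay above that in Foxp3-negative cells. Csf1r was at 2.48 to 13.8 CPM against 5.04 to 12.2 CPM, and C1qa at 3.94 to 12.4 CPM against 7.75 to 14.4 CPM, where monocytes and macrophages held 393 to 589 CPM of Csf1r. Ms4a7 was at 0 in at least 1 sample of each. The 6 markers of conventional type 1 DC summed to 8.28 to 27.3 CPM against 8.91 to 19.7 CPM, and those of conventional type 2 DC to 7.87 to 24.0 CPM against 12.2 to 27.5 CPM.

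Mature DC carry Tnfrsf4 and plasmacytoid DC carry Lag3, so their markers were read too. The 6 mature DC markers summed to 204 to 375 CPM in Foxp3-positive and 135 to 295 CPM in Foxp3-negative T cells, mostly from Ccr7, a homing receptor of T cells too, at 109 to 241 CPM against 89.1 to 279 CPM. Socs2 was the 1 marker of the 6 whose ranges lay apart, at 55.3 to 122 CPM against 12.4 to 41.5 CPM. Fscn1, Ccl22 and Zmynd15 were at 0 in at least 1 sample of the Foxp3-positive cells and at most 6.69 CPM, where mature DC held 1302 to 2473 CPM of Fscn1. The 6 plasmacytoid DC markers summed to 77.7 to 217 CPM against 55.0 to 93.3 CPM. Of these, Ccr9, a gut homing receptor that T cells also use, made up 38.4 to 184 CPM against 8.11 to 32.2 CPM. Siglech was at 0 to 0.984 CPM against 0.193 to 0.453 CPM, where plasmacytoid DC held 939 to 2115 CPM, and Klk1 was at 0 in all Foxp3-positive samples.

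The 8 neutrophil markers summed to 249 to 267 CPM against 78.8 to 152 CPM, of which Il1r2 made up 156 to 207 CPM against 28.8 to 96.5 CPM. Mmp9 also lay apart, at 9.88 to 40.5 CPM against 2.99 to 5.43 CPM. Plasma cells carry Ctla4, and their 8 markers summed to 194 to 303 CPM against 88.6 to 238 CPM. Of these, Prdm1 was at 108 to 171 CPM against 30.1 to 48.8 CPM. Prdm1 is also in the regulatory T cell programme list below, among its genes 2-fold higher in 4 of 4 samples. Jchain was at 4.04 to 154 CPM against 5.62 to 160 CPM. The part of these markers, and of the greater depth of the Foxp3-positive cells, in the levels of the 9 genes was not tested beyond the mixed and thinned settings.

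Pdcd1 and Ikzf2 did not follow Foxp3 over all T cells, and Tigit followed it clearly only in samples 1 and 2. Pdcd1 stood at 10.8, 17.3, 25.2 and 13.8 CPM in Foxp3-positive and 21.4, 12.3, 37.8 and 42.4 CPM in Foxp3-negative T cells. The interval of its ratio lay below 1 in samples 1, 3 and 4 and spanned 1 in sample 2. Tigit stood at 90.5, 111, 65.0 and 78.2 CPM against 43.8, 64.3, 55.3 and 77.5 CPM, with ratios of 2.07 (1.60 to 2.64), 1.72 (1.42 to 2.07), 1.18 (0.974 to 1.42) and 1.01 (0.854 to 1.19). Ikzf2 stood at 1624, 1962, 1332 and 1283 CPM against 1671, 2578, 668 and 1123 CPM, lower in Foxp3-positive cells of sample 2 and 1.99-fold higher in those of sample 3.

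**Figure D2:**
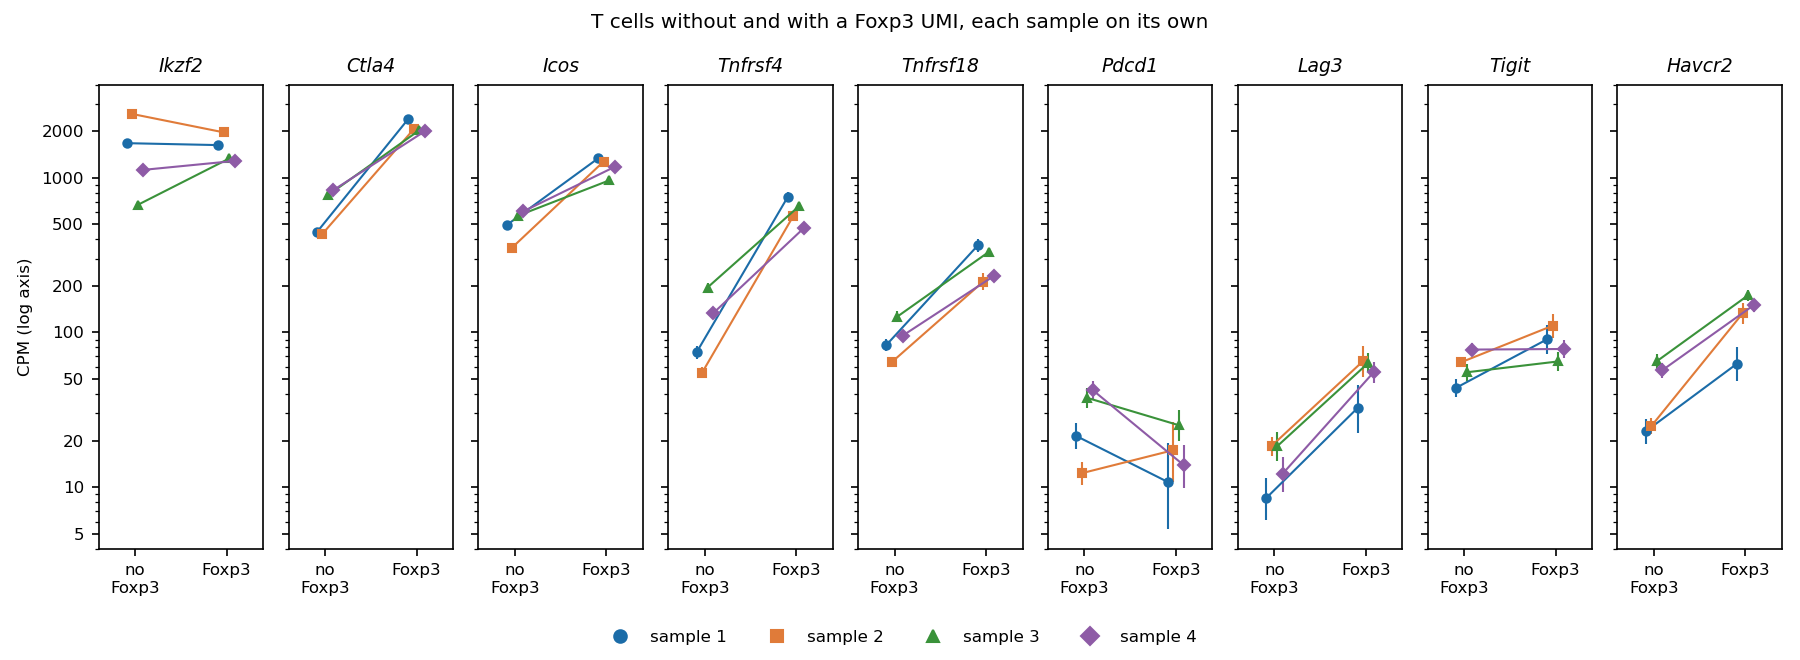
CPM (log axis) of 9 genes in T cells without and with a Foxp3 UMI, each sample joined by a line with its 95% exact Poisson intervals. The lines of Ctla4, Tnfrsf4, Tnfrsf18, Lag3 and Havcr2 climb by at least 2-fold on the log2(CPM + 10) scale in all 4 samples, and those of Ikzf2 and Pdcd1 go in both directions.

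Within CD4 T cells the picture differed for Ikzf2. Among T cells with Cd4 and without Cd8 UMIs, Ikzf2 stood at 1867, 1640, 1240 and 1213 CPM in Foxp3-positive and at 458, 739, 431 and 526 CPM in Foxp3-negative cells. The ratios were 4.07 (3.71 to 4.47), 2.22 (2.04 to 2.41), 2.88 (2.67 to 3.11) and 2.30 (2.13 to 2.49). In this narrower contrast 3 of the 9 genes passed 2-fold in 4 of 4 samples, namely Ikzf2, Lag3 and Havcr2, where 41 of 8403 genes (0.488%) did. Ctla4 kept ratios of 3.16, 2.41, 2.06 and 1.54, Tnfrsf4 of 3.56, 2.995, 1.83 and 1.56, and Tnfrsf18 of 3.32, 2.63, 2.02 and 1.59, each higher in every sample but not 2-fold in all. Icos fell to ratios of 1.55, 1.46, 1.37 and 1.31, and Tigit had 2.09, 1.79, 1.06 and 0.874. For Pdcd1 the interval of the ratio lay below 1 only in sample 4, at 0.341 (0.190 to 0.589), and spanned 1 in the other samples.

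The Foxp3-negative T cells were divided to see where the remaining transcripts lay. The sets were 776 CD4 cells, 1228 CD8 cells, 284 cells with gamma-delta receptor genes (27 to 149 per sample) and 1361 others. Cells with Trdc and without Trac were put in the gamma-delta set whatever their Cd4 and Cd8 UMIs, so the CD4 set of samples 1 and 2 has 1 cell fewer each than in the contrast above. Ikzf2 was low in these Foxp3-negative CD4 cells, at 431, 712, 431 and 526 CPM. In gamma-delta cells it stood at 1843, 3314, 979 and 1350 CPM, and in CD8 cells at 2113, 2859, 451 and 865 CPM, so CD8 cells were above the Foxp3-positive cells in samples 1 and 2 and below them in samples 3 and 4. The 1361 others, the largest set, held 2273, 2878, 1181 and 1934 CPM of Ikzf2. That was above the Foxp3-positive cells in samples 1, 2 and 4 and below them in sample 3.

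Ctla4 in Foxp3-negative CD4 cells was 762, 913, 1035 and 1345 CPM, above the 268 to 496 CPM of CD8 cells in every sample. Tnfrsf4 was 213, 207, 368 and 317 CPM in CD4 cells and only 4.12 to 17.1 CPM in CD8 cells and 0 to 8.81 CPM in gamma-delta cells. Icos was 734 to 937 CPM in CD4 cells, 196 to 276 CPM in CD8 cells and 203 to 835 CPM in gamma-delta cells. Ctla4, Tnfrsf4 and Icos were thus all lower in CD8 than in CD4 cells of every sample. The 1361 others held 294 to 657 CPM of Ctla4, 26.0 to 138 CPM of Tnfrsf4 and 336 to 571 CPM of Icos.

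Pdcd1 was highest in gamma-delta cells in all 4 samples, at 82.2, 25.9, 202 and 125 CPM. Those cells also held 123, 15.3, 179 and 125 CPM of Havcr2, above the Foxp3-positive level in sample 1 and far below it in sample 2. Lag3 was highest in Foxp3-positive cells in every sample, and Tigit was highest there in 3 of 4 samples, with CD4 Foxp3-negative cells at 92.6 CPM in sample 4.

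**Figure D3:**
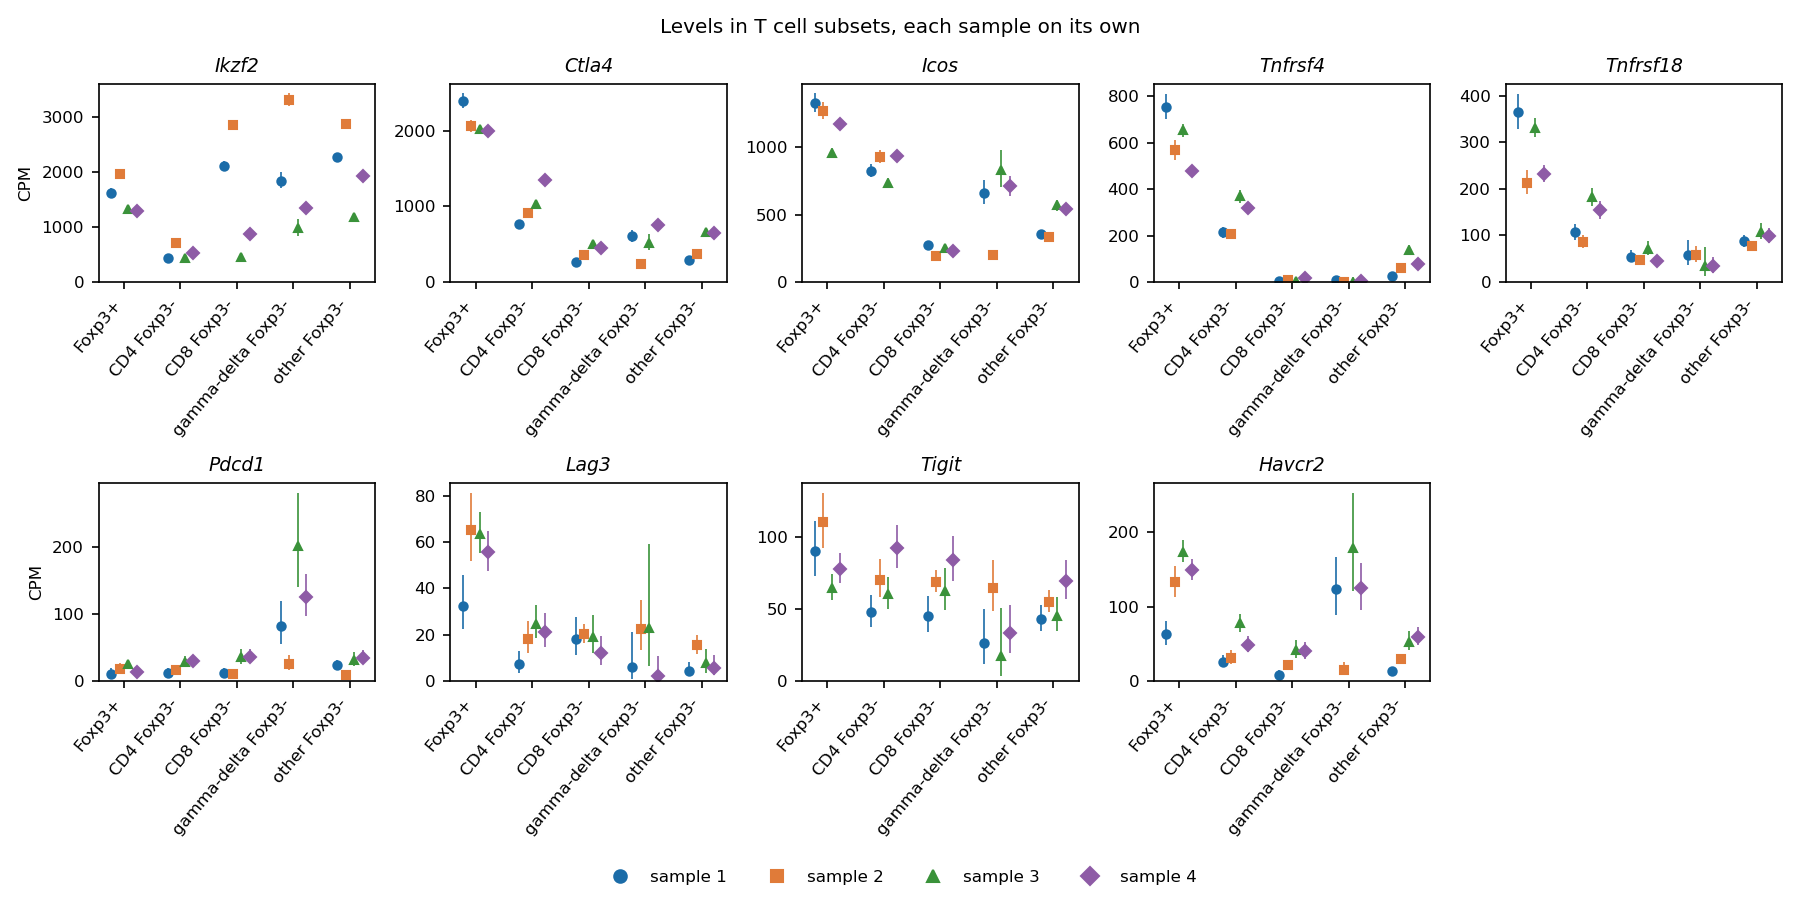
CPM (linear axis from 0) of the 9 other genes in Foxp3-positive T cells and in 4 sets of Foxp3-negative T cells, with 1 point per sample. Tnfrsf4 is at most 17.1 CPM in CD8 and gamma-delta cells, and Pdcd1 is highest in gamma-delta cells in all 4 samples.

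Co-detection per cell was read next. A Ctla4 UMI was found in 98.8%, 98.2%, 98.5% and 99.4% of Foxp3-positive T cells and in 51.3%, 56.6%, 79.0% and 75.8% of Foxp3-negative T cells. After thinning to 1000 UMIs the shares were 80%, 78.1%, 78.1% and 88.4% against 22.3%, 27.8%, 42.5% and 42.1%. For Tnfrsf4 the thinned shares were 35.4 to 46.8% against 3.67 to 11.1%, for Icos 52.2 to 65.8% against 19.8 to 33.8%, and for Tnfrsf18 19.3 to 31.8% against 6.25 to 12.2%. Foxp3-negative CD4 T cells were closer to the Foxp3-positive cells. Their thinned shares were 35.3 to 63.9% for Ctla4, 11.6 to 24.4% for Tnfrsf4, 44.4 to 50.4% for Icos and 6.94 to 18.2% for Tnfrsf18. Thinned shares of Havcr2 were 8.24 to 14.9% against 1.38 to 3.68% and those of Pdcd1 0 to 2.99% against 0.863 to 3.68%. Tigit was seen in 50.6 to 60.2% against 22.3 to 37.1% of cells unthinned, and in 4.71 to 13.2% against 3.69 to 7.77% thinned. The thinned ranges of Tigit overlapped. The thinned shares of Lag3 were 2.21 to 6.47% against 1.23 to 2.05%. They rest on 2, 5, 13 and 4 Foxp3-positive cells with a Lag3 UMI, and the intervals overlapped in samples 1, 2 and 4. Unthinned shares of Ikzf2 were higher in the Foxp3-positive cells of every sample, which in samples 1 and 2 went against the CPM, so no order was read from them. Thinned, the Ikzf2 shares were 41.2%, 58.8%, 58.2% and 45.9% against 39.6%, 63.6%, 30.3% and 39.2%. Their intervals lay apart only in sample 3.

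All 4 of Ctla4, Icos, Tnfrsf4 and Tnfrsf18 were detected together in 72.9%, 68.4%, 79.1% and 80.1% of Foxp3-positive T cells. The share was 7.53%, 5.01%, 22.9% and 17.0% of Foxp3-negative T cells, 21.4%, 19.1%, 47.1% and 42.2% of Foxp3-negative CD4 T cells and 0.714 to 2.87% of CD8 T cells. With thinning, at least 2 of the 4 were seen in 68.7 to 75.7% of Foxp3-positive and 12.5 to 28.9% of Foxp3-negative T cells. Among Foxp3-negative CD4 T cells that thinned share was 29.5 to 48.3%. At least 2 of Pdcd1, Lag3, Tigit and Havcr2 were seen in 35.3%, 53.5%, 54.2% and 58.6% of Foxp3-positive T cells against 8.60%, 7.64%, 20% and 18.6% of Foxp3-negative T cells. Thinned, these shares were 1.18 to 6.14% against 0.154 to 0.971%, and 0.535 to 1.11% in Foxp3-negative CD4 T cells. All 4 of Pdcd1, Lag3, Tigit and Havcr2 were found together in 0, 4, 9 and 3 Foxp3-positive cells.

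**Figure D4:**
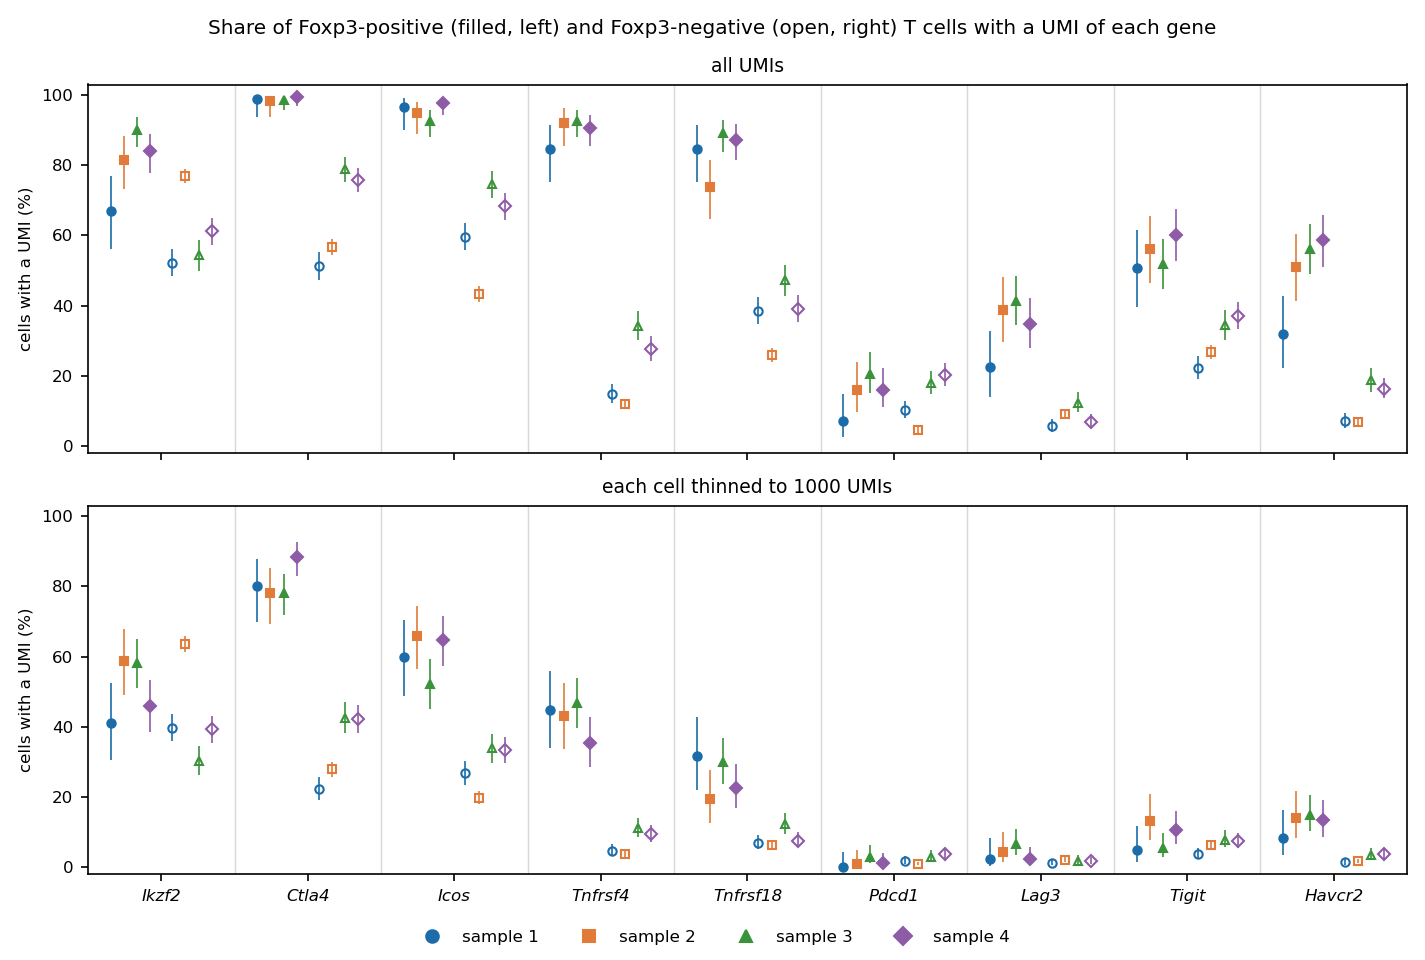
Percent of Foxp3-positive (filled) and Foxp3-negative (open) T cells with a UMI of each gene, per sample, with all UMIs in 1 panel and with cells thinned to 1000 UMIs in the other. Ctla4 is in 78.1 to 88.4% of thinned Foxp3-positive cells and in 22.3 to 42.5% of thinned Foxp3-negative cells.

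Helios divides regulatory T cells, so Foxp3-positive T cells with and without an Ikzf2 UMI were compared. An Ikzf2 UMI was present in 483 of the 581, or 67.1%, 81.6%, 90.05% and 84.0% in samples 1 to 4. The negative cells numbered 28, 21, 20 and 29, under 50 in each sample, so UMIs were summed over samples as a description in which samples weigh unequally. Il1rl1, which encodes the IL-33 receptor ST2, stood at 137 CPM in Ikzf2-positive and 6.63 CPM in Ikzf2-negative cells, a ratio of 20.7 (10.9 to 45.4). Klrg1, a marker of differentiated regulatory T cells, had a ratio of 7.62 (4.79 to 12.9), Gata3 of 3.33 (2.63 to 4.27) and Ikzf4 of 4.27 (2.55 to 7.72). These genes are among the most raised of the regulatory T cell programme list described below. In that list Nt5e and Capg were lower, with ratios of 0.819 (0.746 to 0.901) and 0.782 (0.692 to 0.884). Others lay near 1, such as Gzmb at 0.957 (0.891 to 1.03).

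Of the receptors, Tnfrsf18 had a ratio of 1.79 (1.56 to 2.06), Tnfrsf4 of 1.45 (1.33 to 1.59) and Ctla4 of 0.894 (0.860 to 0.9297). Pdcd1 had 149 UMIs in Ikzf2-positive and 3 in Ikzf2-negative cells, a ratio of 9.67 (3.24 to 47.4). The genes named from this contrast were chosen after their values were seen.

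The regulatory T cell programme list, of other genes known from these cells, was higher on balance in Foxp3-positive T cells. Like the members, the list was chosen with earlier results of these data known. Of 25 genes 24 were tested, 11 were 2-fold higher in 4 of 4 samples and 0 were 2-fold lower, with a median log2 ratio of 1.22. Il10, an anti-inflammatory cytokine, stood at 281, 344, 318 and 215 CPM against 11.6, 22.6, 41.2 and 32.7 CPM. Il2ra, the high-affinity subunit of the IL-2 receptor, stood at 428, 456, 964 and 859 CPM against 130, 73.3, 221 and 230 CPM. Capg, which encodes an actin-capping protein, and Klrg1 had median log2 ratios of 2.05 and 1.99.

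The other co-receptor list of 12 genes had 1 gene 2-fold higher and 2 lower in 4 of 4 samples, with a median log2 ratio of -0.21. The higher one was Entpd1, the ectoenzyme CD39, also a member of the programme list. Cd96 and Cd160 were the lower ones, with Cd96, a receptor of the TIGIT ligand family, at 6.89, 52.0, 5.74 and 7.75 CPM against 72.4, 156, 33.7 and 39.9 CPM. Cd40lg, a helper T cell ligand, had a median log2 ratio of -1.47 and was 2-fold lower in 3 of 4 samples.

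The naive and effector list had 10 of 12 genes tested, 0 2-fold higher and 3 lower in 4 of 4 samples, with a median log2 ratio of -0.98. These 3 were Tcf7, a factor of naive and memory T cells, Lef1, its relative, and Tbx21, which encodes the Th1 factor T-bet. Tcf7 stood at 26.6, 80.9, 23.3 and 41.5 CPM in Foxp3-positive and 351, 228, 229 and 213 CPM in Foxp3-negative T cells. Over all genes 82 were 2-fold higher and 89 lower. The lists, and the ranks below, were read against all Foxp3-negative T cells, CD8 and gamma-delta cells included. They were not read within CD4 T cells, so the part of this make-up was not tested.

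Ranked by median log2 ratio among 10482 genes including Foxp3, Tnfrsf4 stood 7th, Ctla4 22nd, Tnfrsf18 64th, Lag3 75th, Havcr2 95th and Icos 119th. Tigit stood at rank 1381, Ikzf2 at 4576 and Pdcd1 at 9708. The 10 genes with the largest median log2 ratio outside the 10 described were Nckap5, Il10, Ankrd55, Myo3b, Fabp5, Ky, Glrx, Sh3rf1, Capg and Ccr2. Nckap5 had a median log2 ratio of 3.23 and Ccr2, the last, of 2.03. As these ranks rest on the contrast itself, they are a description.

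Several ligands of these receptors were found in DC, B cells and myeloid cells, and Nectin2 and Ceacam1 in epithelial cells. Cd80 and Cd86 encode the ligands of CTLA-4. Mature DC held 538 to 1002 CPM of Cd80, with a median of 722, and neutrophils a median of 281 CPM. Cd86 had medians of 1234 CPM in conventional type 2 DC, 1182 CPM in B cells and 1171 CPM in mature DC.

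Cd274, which encodes the PD-1 ligand PD-L1, stood at 1741 to 2051 CPM in mature DC. Pdcd1lg2, the second PD-1 ligand, had medians of 180 CPM in conventional type 1 DC and 149.5 CPM in mature DC. Tnfsf4, the OX40 ligand, stood at 149 to 402 CPM in mature DC and 34.6 to 68.3 CPM in ILC. Icosl, the ICOS ligand, had its highest median in mature DC, at 53.2 CPM.

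Pvr, a TIGIT ligand, had a median of 154 CPM in mature DC. Nectin2 was highest in epithelial cells, at 140 and 112 CPM in samples 2 and 4, which held enough of them, and Ceacam1, a TIM-3 ligand, had a median of 1199 CPM there. Tnfsf18, the GITR ligand, and Fgl1, a LAG-3 ligand, were near 0 in every class, with a median of at most 0.533 CPM. No ligand of the list was 2-fold higher or lower in Foxp3-positive T cells in 4 of 4 samples, of 8 tested.

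**Figure D5:**
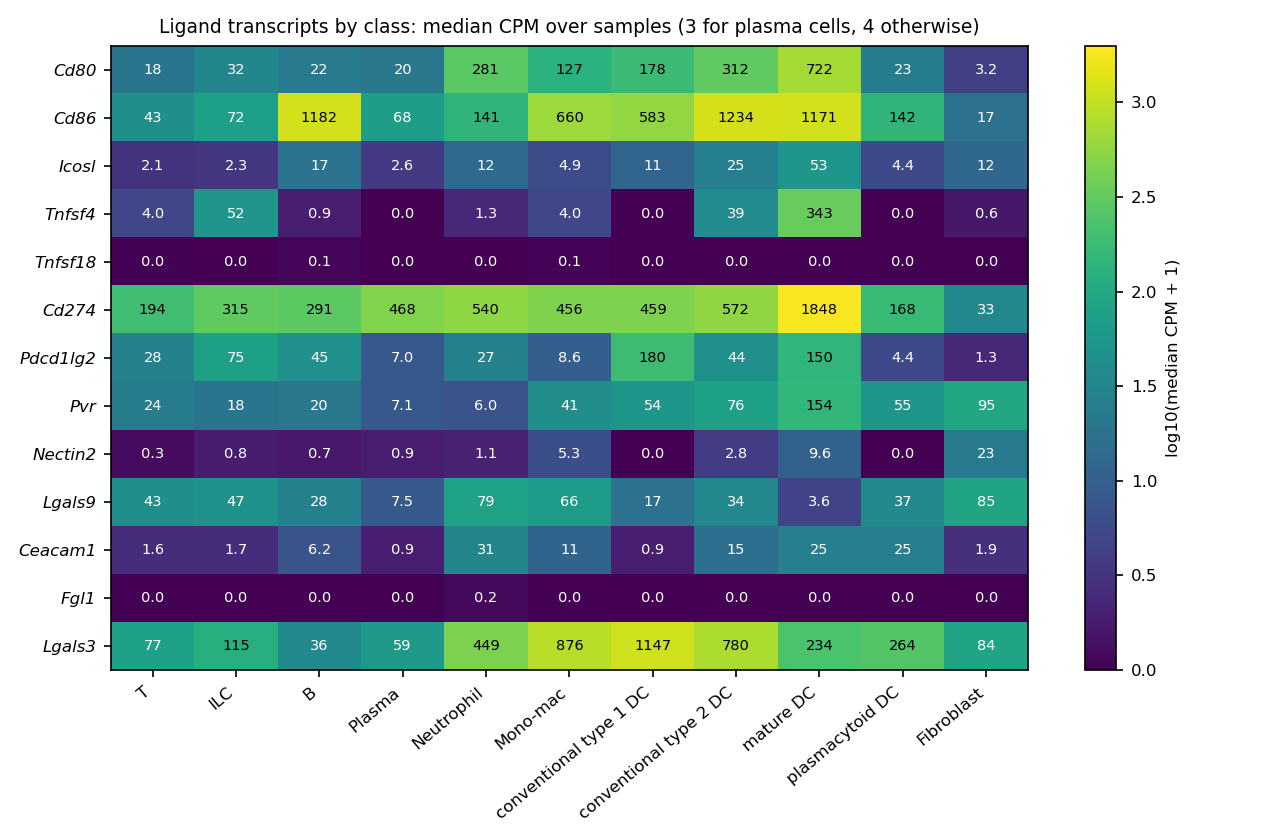
Heat map of the median CPM over samples (colour, log10 of CPM + 1) of 13 ligand transcripts by cell class, without epithelial, endothelial and mast cells. Mature DC are highest for Cd274, Cd80, Tnfsf4 and Pvr, and Tnfsf18 and Fgl1 are near 0 throughout.

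The gene whose level over classes and samples was most like that of each member was found among 11204 genes that reached 20 CPM, as Pearson's r of log2(CPM + 1) over 35 class and sample points. For Foxp3 it was Cd5 (r = 0.941), for Ikzf2 Cd96 (0.958), for Ctla4 2310016D23Rik (0.888), for Icos Camk4 (0.978) and for Tnfrsf4 St8sia1 (0.894). For Tnfrsf18 it was Gna15 (0.955), for Pdcd1 Il2ra (0.964), for Tigit Zap70 (0.959), for Havcr2 Bcl2a1b (0.890) and for Lag3 Tex2, with the lowest r, 0.789. These points share libraries, so r is a description. The members were most alike for Icos and Tigit, at 0.945.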

How the data were processed

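Colonic CD45+ leukocytes were profiled by 10x Genomics single-cell RNA sequencing in 4 samples. The deposited values are whole UMI counts for each gene in each cell, which the authors had not normalized. The submitters' processing notes name Cell Ranger 5.0.0, STAR, Seurat and the build mm10, while the matrix headers name version 7.0.1, and the study gives no thresholds. The deposited samples held 11425, 13730, 11581 and 8493 cells. Cells with at least 200 genes and under 20% mitochondrial UMIs were kept, and those with the highest Scrublet scores were removed at 0.8% per 1000 cells (3882 cells), in scanpy 1.11.5 with Python 3.11.15, numpy 2.4.6, scipy 1.17.1, pandas 2.3.3 and igraph 0.11.9.

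A cell was put into a class by the highest share of that lineage's markers with a UMI, of which at least 3 were needed. It was called mixed when a second lineage reached over 0.5 of that share. A class was read in samples with at least 50 of its cells, and a subset of ILC, DC or T cells with at least 10. The T cell marker sums by class were an exception and also cover samples with fewer than 50 cells of a class. The marker and gene lists were written down, but the gate's rule and cuts and the T cell subsets were set after the data were seen. The members and lists were chosen with earlier results of these data known. Counts were summed per class and sample, with 95% exact Poisson, binomial or conditional binomial intervals for counting error. Log2 ratios used a pseudocount of 10 CPM and genes with at least 100 UMIs, and a gene was called at 2-fold in 4 of 4 samples. For thinned shares, cells were drawn down to 1000 UMIs and shallower cells were left out. For a count of 0 the limit is 3 counts.

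The genes named are all 10 members, the 10 largest ratios outside the members, of which Il10 and Capg are also in a list, and the most alike gene of each member. Of each list other than the ligands, 2 to 4 genes were named by largest absolute median log2 ratio. For the ligands 2 to 4 by the highest CPM had been planned, but all except Lgals3 and Lgals9 were named. Cd160, the markers of other lineages and the genes of the Ikzf2 contrast were named after their values were seen. Alternatives covered the cell filters, the gate, the Foxp3 cut, thinning, the pseudocount, the fold and the UMI filter. Leaving out each sample in turn was added after seeing the data. For the Leiden alternative 2000 variable genes, 30 components, 15 neighbours and resolution 1.0 gave 26 clusters. The steps were tested on simulated data. The protein table and 3 promoter windows were not analysed here.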

Additional observations from a re-analysis of the deposited data

How the results depend on the processing

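The settings tried were no doublet removal, a 10% mitochondrial limit, 500 genes, 4 CD3 UMIs, mixed cells kept, Leiden classes, 2 Foxp3 UMIs, CD4 T cells only, thinning, a pseudocount of 1 CPM, a 1.5-fold call and no UMI filter. The median share of T cells with a Foxp3 UMI, 17.0% over the 4 samples, moved to 20.2% with mixed cells kept, where 6328 cells passed as T cells, and to 4.69% with thinning, which lowers detection by construction. The count of 5 genes at 2-fold in Foxp3-positive T cells moved to 3 with mixed cells kept and to 3 in CD4 T cells, and was 4 with thinning, without Lag3 at a median log2 ratio of 0.75, and 6 at 1.5-fold, with Icos added. The other settings gave 5. T cells were highest in 4 of 4 samples for 4 of the 10 genes, and for 6 with Leiden classes. The share of all genes highest in T cells is not given, so these counts are a description only. The 8 genes above other classes were 7 with mixed cells kept. Of 108 calls for single genes in Foxp3-positive T cells, 100 were as reported, 6 were lost, 2 were gained (Ikzf2 in CD4 T cells and Icos at 1.5-fold, its value unchanged) and no called gene changed sign. Some of the 108 could not change. A 1.5-fold call keeps every 2-fold call, all 9 genes passed the UMI filter, and the 500-gene limit left 4229 of 4230 T cells. The 100 also include genes called in neither setting, such as Pdcd1, so they overstate how far the calls were tested. The lost calls were Ctla4, Tnfrsf4 and Tnfrsf18 in CD4 T cells, Lag3 and Havcr2 with mixed cells kept and Lag3 with thinning. The share of all genes called, Foxp3 counted in, was 0.317% with mixed cells kept, 1.91% with the pseudocount of 1 CPM, 3.11% at 1.5-fold, 1.37% with thinning and 0.391% without the UMI filter. The cause was not tested where none is given. Leaving out each sample in turn, added after seeing the data, moved the median Foxp3 share to 22.5% without sample 1 or 2 and to 11.5% without sample 3 or 4. It left 5 genes, the same 5, at 2-fold in 3 of 3 samples each time, with 0.868% to 1.07% of all genes called. It gave 4 to 6 genes highest in T cells and 8 to 9 above other classes, also without a share of all genes beside them. A gene that passes in 4 of 4 samples also passes in any 3 of them. These counts and that of the 5 genes could thus only stay or rise, so they do not test stability over samples. No paired analysis was possible because the labels put no sample in a group that could be paired with another by number. The contrasts between cells lie within each sample and so are paired by design. Foxp3-negative means no Foxp3 UMI, which a low depth can also give, and Foxp3-positive T cells were deeper in every sample. Single genes at few CPM, such as Pdcd1 and Lag3, are limited by depth.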
